A study of Homo sapiens with 4 samples.

Results

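The extracellular matrix and caveolae genes are 106 of the 19775 genes read by the HG-U133 Plus 2.0 array in U937 cells. They were chosen by symbol, as all collagen and laminin chains, caveolins, cavins, matrix metalloproteinases (MMPs), tissue inhibitors of metalloproteinases (TIMPs), thrombospondins, fibulins and a short list of single genes such as SPARC, FN1 and VIM. The rule uses no measured value, but it was set with earlier results of these data known. Their probe sets, the groups of probes that each read 1 transcript region, number 254 of 41091.

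U937-AE cells were compared with U937-Mt cells, to see which transcripts differ when the leukemia fusion protein AML1/ETO is expressed. U937 is a human myelomonocytic cell line. U937-AE is a single clone with HA-tagged AML1/ETO under the mouse metallothionein promoter of pSG-MtNEO, and U937-Mt is a bulk population with the empty vector, so effects of the transgene and of the clone cannot be told apart. Both lines received 100 µM ZnSO4 for 8 hours, which switches that promoter on. For each line 3 RNA extractions were combined into 1 pool, and the pool was hybridized to 2 arrays, which makes 4 arrays in all. The spread between the arrays of a line is therefore hybridization error, and no test across the cell lines was possible. A lower signal may mean fewer cells with the transcript or less RNA per cell, which cannot be told apart in bulk RNA.

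The extracellular matrix is the protein scaffold around cells. Collagens and laminins are secreted chains that assemble outside the cell into fibrils and basement membranes, MMPs cut them, and TIMPs block the MMPs. Caveolae are flask-shaped pits of the plasma membrane built from caveolins and coated by cavins. Monocytic cells make little structural matrix and are better known for the proteases that let them move through it.

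Signals below the median of an array were raised to that median, called the floor, which lay at signals of 119.5, 129.7, 146.8 and 153.6 on U937-AE arrays 1 and 2 and U937-Mt arrays 1 and 2. A gene was called when each of the 4 pairings of a U937-AE and a U937-Mt array exceeded 1.5-fold in 1 direction, and log2 differences are U937-AE minus U937-Mt. The rule itself keeps the groups of arrays apart, so the absence of overlap in a called gene or probe set is no further support. For genes not called it is description only, since the share of all genes without overlap is not given here. A gene at the floor on every array has a log2 difference of -0.27, since the floors differ. By this rule 3 of the 106 genes (2.83%) were higher in U937-AE (SPARC, CAV1 and CAVIN2), beside 1.7% of all genes, and 5 (4.72%) were lower (MMP2, COL4A2, EMILIN2, THBS4 and TIMP2), beside 4% of all genes. The lower share was near that of all genes, and neither share is read as particular to the members. The remaining 98 were not called. Most matrix genes were dim: 31 of 106 (29.2%) lay above the floor on all 4 arrays, against 54.0% of all genes, and 39 (36.8%) were at the floor on all 4, against 28.1%. Among the 56 members measured, that is those whose mean log2 signal in either pool reached the mean floor, the median log2 difference was -0.29, beside -0.10 over the 12934 genes measured. Among the 31 above the floor everywhere the median was -0.21, beside -0.06. The members were dimmer than all genes, and values at the floor pull a difference toward -0.27. Neither median is therefore read as particular to the members. Copies of 1 pool differed by more than 1.5-fold for 9 members in U937-AE (8.49%) and 6 in U937-Mt (5.66%), beside 5.09% and 6.24% of all genes.

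The arrays can be checked against the transgene and against each other. RUNX1T1, whose sequence makes up the ETO part of the fusion, read 1361.5 and 1299 (U937-AE) against 8.6 and 7.6 (U937-Mt) with its called probe set, a difference of at least 8.86-fold, while its other 6 probe sets were not called. Across genes the arrays correlated at r = 0.935 within U937-AE, 0.919 within U937-Mt and 0.910 to 0.916 between the lines, genes not being independent replicates. Hybridization controls, added in equal amounts to every array, had 1.27-fold more signal in U937-Mt than in U937-AE. Where scaling to them changes the call of a member or of another matrix or caveolae gene named here, the value so obtained is given. Cell type markers are called without that scaling, under which LYZ had a log2 difference of -0.69 instead of -1.03. The pools were also read for markers of their own and of other lineages. Of 7 myeloid markers all 7 were above the floor on all arrays, with PTPRC higher and SPI1, LYZ and MPO lower in U937-AE, and with summed signals of 25634.4 and 25841 (U937-AE) against 40133.2 and 39005 (U937-Mt). MPO carried that difference, since the other 6 summed to 23736.4 and 24283.1 (U937-AE) against 24016.5 and 24414.2 (U937-Mt).

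The sequences below are the DNA by which the leading genes can be recognized. SPARC and CAV1 were measured by the study with quantitative PCR, and its primers are shown first because they name the transcripts behind the largest differences of the set.
SPARC forward: tgtgggagctaatcctgtcc
SPARC reverse: acctcctcttcggtttcctc
CAV1 forward: gcgaccctaaacacctcaac
CAV1 reverse: tcccttctggttctgcaatc

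The 250 bases upstream of the start are shown for the genes with a probe set called higher and for EMILIN2, from RefSeq on GRCh38.p14 and on the gene's own strand. Of the genes called lower, MMP2 and TIMP2 had no window and were not searched. Among the others only EMILIN2 held a RUNX or AP-1 match. The windows were searched on both strands for TGTGGT and TGCGGT, core motifs of the RUNX proteins to which AML1 belongs. The search also covered TGANTCA, the motif of AP-1 factors, and the E-box CANNTG bound by E-proteins such as HEB. No match of one motif overlapped a match of another in these windows. Capitals mark RUNX and AP-1 matches. The SPARC window is chr5:151686916-151687165 on the minus strand, the CAVIN2 window chr2:191847089-191847338 on the minus strand, the COL5A1 window chr9:134641553-134641802 and the EMILIN2 window chr18:2846756-2847005, both on the plus strand. CAV1 has several annotated starts on the plus strand, and the windows of the first, chr7:116524759-116525008, and of the third, chr7:116526112-116526361, are given.
SPARC: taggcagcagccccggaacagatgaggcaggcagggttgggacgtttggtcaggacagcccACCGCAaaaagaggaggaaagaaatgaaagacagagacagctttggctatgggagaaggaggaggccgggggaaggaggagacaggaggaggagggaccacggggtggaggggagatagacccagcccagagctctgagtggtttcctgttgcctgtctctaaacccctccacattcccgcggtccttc
CAV1 start 1: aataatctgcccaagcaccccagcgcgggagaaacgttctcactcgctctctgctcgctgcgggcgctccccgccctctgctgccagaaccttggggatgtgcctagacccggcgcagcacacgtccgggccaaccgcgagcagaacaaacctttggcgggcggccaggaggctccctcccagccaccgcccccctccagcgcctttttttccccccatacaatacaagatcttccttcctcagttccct
CAV1 start 3: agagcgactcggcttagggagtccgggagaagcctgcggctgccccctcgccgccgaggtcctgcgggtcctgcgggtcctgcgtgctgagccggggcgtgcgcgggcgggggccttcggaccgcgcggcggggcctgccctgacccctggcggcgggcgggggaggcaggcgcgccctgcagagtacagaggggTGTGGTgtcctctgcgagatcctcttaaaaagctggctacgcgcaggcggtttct
CAVIN2: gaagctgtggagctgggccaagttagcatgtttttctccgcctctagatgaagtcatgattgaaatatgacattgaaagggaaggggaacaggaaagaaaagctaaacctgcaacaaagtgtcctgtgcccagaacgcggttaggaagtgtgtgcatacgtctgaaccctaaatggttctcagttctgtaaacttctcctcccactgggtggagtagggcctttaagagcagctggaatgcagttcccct
COL5A1: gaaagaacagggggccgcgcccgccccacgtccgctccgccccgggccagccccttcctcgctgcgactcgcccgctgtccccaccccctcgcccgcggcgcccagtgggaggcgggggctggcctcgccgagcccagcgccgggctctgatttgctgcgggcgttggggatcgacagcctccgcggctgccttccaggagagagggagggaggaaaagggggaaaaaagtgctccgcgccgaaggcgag
EMILIN2: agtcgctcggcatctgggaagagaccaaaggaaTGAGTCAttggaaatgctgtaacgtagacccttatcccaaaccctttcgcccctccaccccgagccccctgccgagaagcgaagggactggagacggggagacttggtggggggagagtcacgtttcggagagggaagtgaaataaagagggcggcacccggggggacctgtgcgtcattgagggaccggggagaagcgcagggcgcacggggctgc

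The SPARC window holds TGCGGT on the opposite strand, printed as ACCGCA, from 189 bases before the start, and an E-box at 232 bases. The first CAV1 window holds none of the motifs and the third holds TGTGGT at 55 bases. The CAVIN2 window has an E-box at 21 bases, the EMILIN2 window has TGAGTCA at 217 and an E-box at 240 bases, and the COL5A1 window has no match. Among the windows not printed, that of COL4A2 has no match, and the THBS4 windows have E-boxes at 119 and 39 bases before the first start and at 194 before the second. Such matches are common: of 35116 windows of that length over all genes 10.98% hold TGTGGT, 5.84% TGCGGT, 6.57% TGANTCA and 61.8% an E-box. Of the 96 windows found for 75 members, 7.29%, 6.25%, 6.25% and 51.0% hold them. A match describes the letters only.

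SPARC, a secreted matricellular glycoprotein that binds collagen and modulates cell adhesion, had the largest difference of the set. Its brightest probe set read 2831.7 and 2470.2 (U937-AE) against 98.8 and 80.4 (U937-Mt). The U937-Mt values were both below the floor, so that SPARC was higher in U937-AE by at least 17.6-fold (log2 difference 4.14, range over the 4 comparisons 4.01 to 4.27). The second SPARC probe set read 836.6 and 857.4 against 100.5 and 60.8, at least 5.64-fold higher (log2 difference 2.50). The groups did not overlap in either. SPARC is also made by fibroblasts, endothelium and melanocytes, so markers of those cells were examined beside it. Of 5 melanocyte markers with a value TYRP1 was called, with signals of 2173.7 and 3057.6 (U937-AE) against 117.2 and 55.1 (U937-Mt), and MLANA, PMEL, TYR and MITF were not called. The melanocyte markers summed to 2729.5 and 3860.5 in U937-AE but to 818 and 778.3 in U937-Mt, a sum carried by TYRP1, and their part in the SPARC difference was not tested. None of 8 fibroblast and mural cell markers, 7 endothelial markers or 7 epithelial markers was called. PDGFRA, FAP and TWIST1, VWF and CDH5, and EPCAM and CDH1 were at the floor on all 4 arrays, whereas ACTA2 and TAGLN, PECAM1, TEK, ROBO4 and CLDN5, and KRT8 were above it on all 4. The fibroblast and mural cell list summed to 1748.7 and 1866.4 in U937-AE and to 2061.5 and 1867.6 in U937-Mt, the endothelial list to 1180.7 and 1253.7 against 1467.8 and 1921.8, and the epithelial list to 391.5 and 468.5 against 607.3 and 734.8. None of these sums was higher on both U937-AE arrays than on both U937-Mt arrays.

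CAV1, the scaffold protein of caveolae, was higher in U937-AE with both of its probe sets. The brighter read 3154.6 and 2981.4 (U937-AE) against 530.2 and 490.6 (U937-Mt), and the other 1166.8 and 1214.5 against 176.1 and 221.8. All 8 values were above the floor, the groups did not overlap, and the probe sets gave the same log2 difference of 2.59, with ranges of 2.49 to 2.68 and 2.40 to 2.79, or 6.01-fold and 6.02-fold. Unlike SPARC, CAV1 thus had signal above the floor in U937-Mt as well.

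CAVIN2, which coats the caveolar membrane, gave 431.7 and 420.7 (U937-AE) against 86.9 and 71.3 (U937-Mt) with its brightest probe set. Both U937-Mt values were below the floor, and CAVIN2 was higher in U937-AE by at least 2.84-fold (log2 difference 1.5, range 1.45 to 1.56). Its other probe set was not called, with 162.6 and 212.8 against 113.0 and 109.9. The groups did not overlap there, but the U937-AE signals stayed close to the floor. The call did not hold with the floor at the 75th percentile of the arrays, where every CAVIN2 value is at the floor.

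None of the other genes of the caveolar coat was called. CAV2, the usual partner of CAV1 in caveolae and its next neighbor on chromosome 7, read 137.5 and 99.1 (U937-AE) against 159.0 and 186.3 (U937-Mt) (log2 difference -0.37), near the floor in both lines, and its other probe sets were at the floor. CAVIN1, needed for caveolae to form, read 310.6 and 255.6 against 175.3 and 319.4, so that the groups overlapped (log2 difference 0.25, range -0.32 to 0.83). The other 2 CAVIN1 probe sets were at the floor on all arrays. CAV3, the muscle caveolin, read 174.8 and 268.0 against 154.9 and 178.9, with overlap again. CAVIN3 and CAVIN4 were below the definition of measured. Of the 7 caveolin and cavin genes 2 were thus higher, none was lower and 5 were not called.

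**Figure D1:**
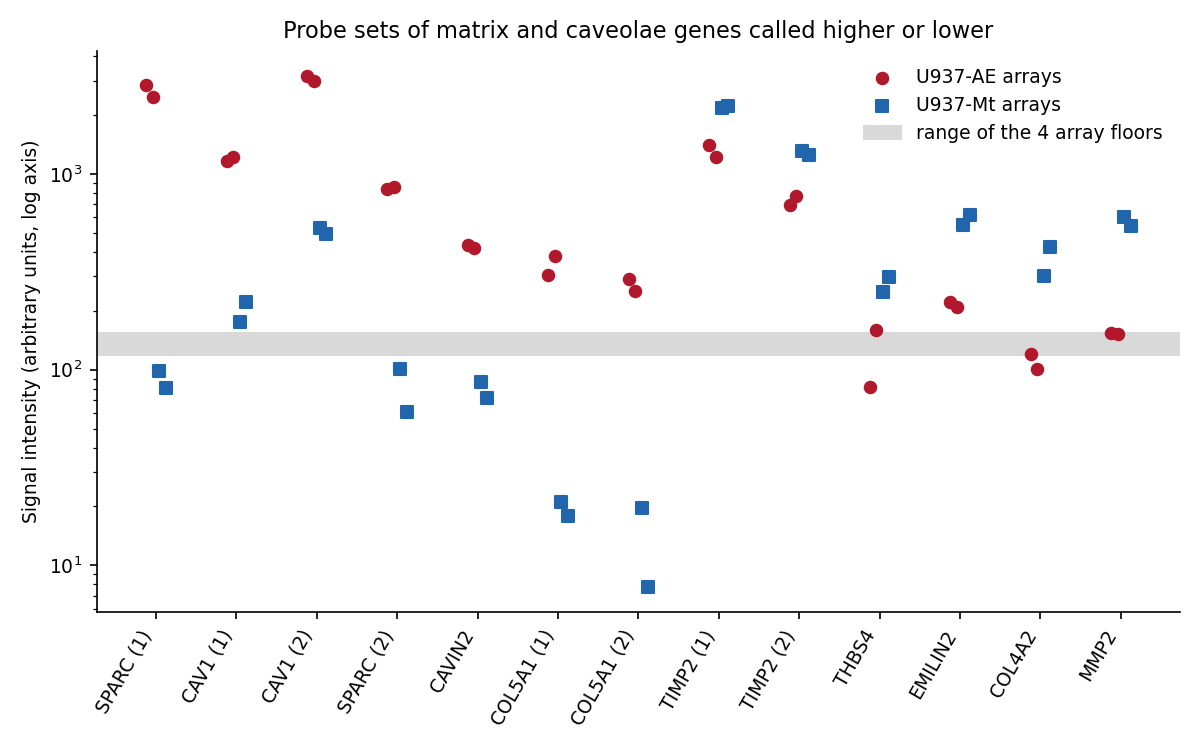
Signal of each array (log axis, arbitrary units) for the 13 probe sets called higher or lower, circles for the 2 U937-AE and squares for the 2 U937-Mt arrays, ordered by the log2 difference with the floor applied, and with numbers marking several probe sets of 1 gene. The gray band spans the 4 floors: both SPARC probe sets, CAVIN2 and both COL5A1 probe sets lie under it in U937-Mt, while CAV1 and TIMP2 lie above it on all arrays.

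The 43 collagen genes were mostly at or near the floor in both lines, with 17 at the floor on all 4 arrays and 9 above it on all 4. None was called higher and 1 was called lower. That gene was COL4A2, a chain of basement membrane collagen. Its brightest probe set read 119.7 and 100.5 (U937-AE) against 299.8 and 424.7 (U937-Mt), without overlap, or lower in U937-AE by at least 2.86-fold (log2 difference -1.52, range -1.83 to -1.21). One U937-AE value was below the floor and the other next to it. The second COL4A2 probe set pointed the same way with 83.5 and 139.7 against 242.8 and 189.2, but was not called (log2 difference -0.73). COL4A1, which lies next to COL4A2 on chromosome 13 and makes the partner chain of the same collagen, was at the floor on all arrays with its probe sets.

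COL5A1, a fibrillar collagen chain that regulates fibril diameter, was a gene whose call depended on the choice of probe set. The brightest of its 3 probe sets, which stands for the gene here, read 191.9 and 255.2 (U937-AE) against 83.6 and 131.2 (U937-Mt), short of a call (log2 difference 0.56, range 0.32 to 0.80). The other 2 were called higher. They read 304.5 and 382.3 against 21.0 and 17.8, at least 2.27-fold, and 291.0 and 253.0 against 19.6 and 7.8, at least 1.81-fold. All 3 probe sets thus had every U937-AE value above every U937-Mt value and all U937-Mt values below the floor. COL5A1 as a gene was called higher when the mean of its probe sets was used (log2 difference 0.87), when probe sets whose probes are shared between transcripts or may cross-hybridize were left out (1.18), and when the arrays were quantile normalized (0.80) or shifted to a common median (0.83).

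Among the collagens above the floor on all arrays, COL9A2, a fibril-associated chain of cartilage, read 499.1 and 506.2 (U937-AE) against 788.1 and 740.3 (U937-Mt). These groups did not overlap, and the log2 difference of -0.60 (range -0.66 to -0.55) fell short of the call because the smallest comparison was 1.46-fold. COL6A1, a beaded filament chain, read 242.2 and 190.3 against 293.6 and 343.5 (log2 difference -0.56). The brighter probe set of COL11A2, a fibrillar chain, read 708.9 and 786.7 against 745.3 and 760.3 (log2 difference -0.01, range -0.10 to 0.08). Its other probe set, also above the floor on all arrays, read 135.8 and 192.2 against 470.4 and 259.9 without overlap (log2 difference -1.11, range -1.79 to -0.44), so the probe sets of COL11A2 disagree, and neither was called. COL1A1 and COL1A2, the chains of type I collagen, overlapped between the lines, with 324.3 and 205.9 against 190.0 and 284.6 in the brightest COL1A1 probe set and with 288.3 and 176.5 against 201.2 and 247.0. COL6A2, COL18A1, COL22A1 and COL27A1 had log2 differences of -0.25, -0.21, -0.06 and -0.43, and none of them was called. COL3A1, COL4A1, COL6A3 and COL16A1 were among the 17 collagen genes at the floor throughout.

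None of the 10 laminin genes was called. LAMC1, the gamma chain found in most laminins, read 1173.5 and 1042.5 (U937-AE) against 818.0 and 776.2 (U937-Mt), without overlap (log2 difference 0.47, range 0.35 to 0.60). Its other probe set had a log2 difference of -0.25 with comparisons on both sides of 0, so the probe sets of the gene disagree. LAMC1 was called higher with the arrays scaled to the hybridization controls (log2 difference 0.82). LAMC3, another gamma chain, read 166.0 and 289.4 against 350.4 and 401.7 (log2 difference -0.78), and was not called because its smallest comparison was 1.21-fold. LAMA2 and LAMA4, alpha chains, had log2 differences of -0.46 and -0.04. The second measured LAMA2 probe set read 186.4 and 199.6 against 62.9 and 117.0 (log2 difference 0.36), so its probe sets disagree as well, and 4 laminin genes were at the floor throughout.

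**Figure D2:**
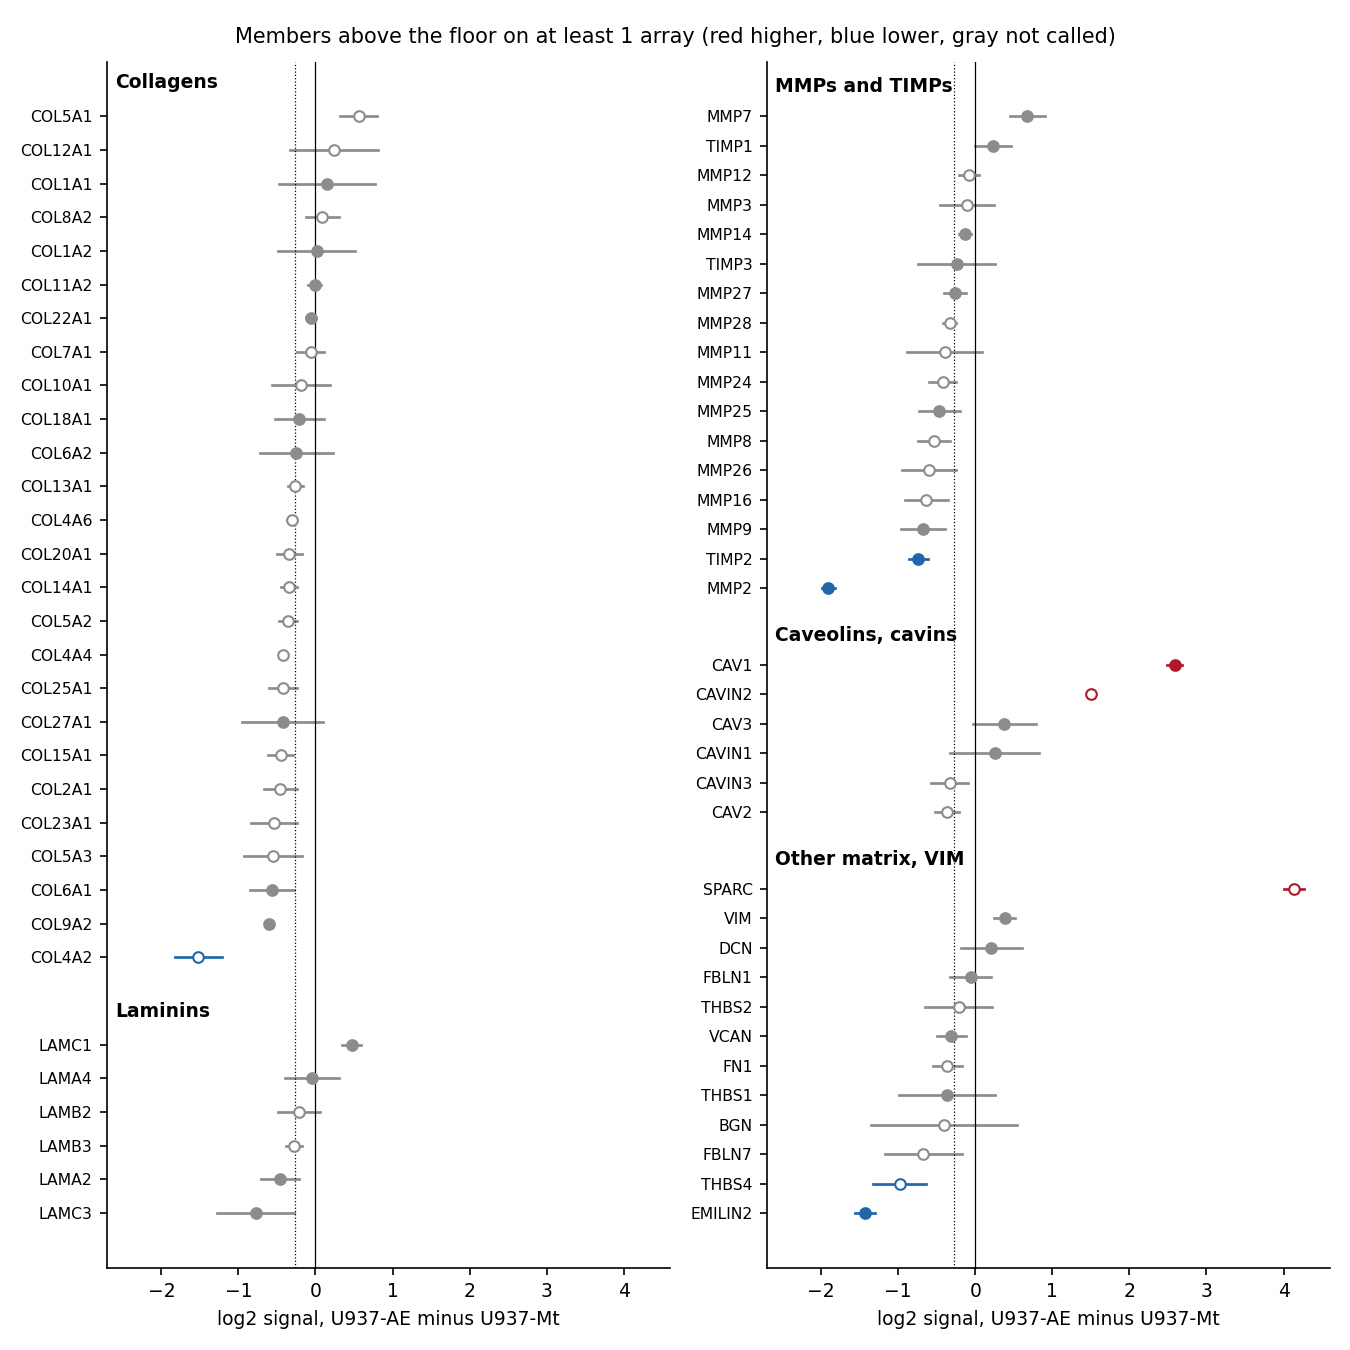
The log2 difference, U937-AE minus U937-Mt, of the members above the floor on at least 1 array, by family. Points are means and bars the range over the 4 comparisons of arrays (hybridization error only), filled where all 4 arrays were above the floor and open otherwise, and the dotted line marks -0.27, the value of a gene at the floor throughout. SPARC, CAV1 and CAVIN2 stand to the right of all others, and MMP2, COL4A2 and EMILIN2 to the left.

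Of the 22 MMP genes 1 was lower in U937-AE, none was higher and 8 were at the floor throughout. MMP2, a gelatinase that cuts denatured collagen and basement membrane collagen, was the lowest of the whole set. It read 153.1 and 151.3 (U937-AE) against 603.1 and 541.6 (U937-Mt). The groups did not overlap and MMP2 was 3.76-fold lower in U937-AE (log2 difference -1.91, range -1.99 to -1.82), with U937-AE signals close to the floor. Of its other probe sets 1 read 142.0 and 143.8 against 138.0 and 320.6 and the last was at the floor, so the call rests on 1 probe set. MMP9, the other gelatinase, read 258.9 and 284.4 against 373.2 and 505.1. These did not overlap either, but MMP9 was not called, since its comparisons ran from 1.31-fold to 1.95-fold (log2 difference -0.68).

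MMP7, a small secreted matrilysin, read 345.4 and 431.1 (U937-AE) against 229.6 and 253.8 (U937-Mt). The groups did not overlap, and its log2 difference of 0.68 (range 0.44 to 0.91) was not called. MMP7 was called higher under quantile normalization (0.85), with the arrays shifted to a common median (0.95) and with scaling to the hybridization controls (1.02). MMP14, a membrane-bound MMP that activates pro-MMP2, was level at 785.2 and 746.2 against 817.5 and 864.7 (log2 difference -0.14). The other 3 MMP14 probe sets were at the floor on all arrays. MMP25, a leukocyte membrane-type MMP, read 346.1 and 420.7 against 482.4 and 576.6 (log2 difference -0.47) and was not called. MMP7, MMP8, MMP1, MMP3, MMP12, MMP13 and other MMP genes form a cluster on chromosome 11, and none of that cluster was called. MMP1, MMP10 and MMP13 were at the floor throughout.

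TIMP2, an MMP inhibitor that also takes part in the activation of pro-MMP2, was lower in U937-AE with 2 of its 3 probe sets. The brightest read 1411.7 and 1227.5 (U937-AE) against 2160.3 and 2227.5 (U937-Mt), 1.67-fold lower (log2 difference -0.74, range -0.86 to -0.61). The second read 693.5 and 770.3 against 1304.6 and 1243.0, 1.74-fold lower. Neither overlapped, and the last probe set, below the floor in U937-AE, was not called. The TIMP2 call depends on scaling: its log2 difference was -0.47 with the arrays shifted to a common median and -0.39 with scaling to the hybridization controls, and it was called under neither. TIMP1, a broad MMP inhibitor, was bright in both lines with 2966.0 and 2664.8 against 2668.6 and 2158.8 and was not called (log2 difference 0.23). TIMP3, which binds to the matrix, read 177.3 and 253.9 against 212.7 and 296.0 with overlap, and TIMP4 was at the floor.

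EMILIN2, a glycoprotein of elastic fibers, read 222.4 and 208.9 (U937-AE) against 547.7 and 614.6 (U937-Mt) with its brightest probe set. It was 2.69-fold lower in U937-AE without overlap (log2 difference -1.43, range -1.56 to -1.30). Its other 2 probe sets, at or near the floor, were not called, and neither was the gene when their mean was taken (log2 difference -0.66) or when the shared and cross-hybridizing probe sets were left out (-0.32). EMILIN1 was at the floor on all arrays.

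THBS4, a pentameric thrombospondin of tendon and vessel matrix, read 81.2 and 158.9 (U937-AE) against 247.9 and 299.0 (U937-Mt) with its only probe set. The groups did not overlap and the mean was lower in U937-AE by at least 1.98-fold (log2 difference -0.98, range -1.32 to -0.64), with 1 U937-AE array below the floor. THBS4 was called under none of the 3 other scalings, where its log2 difference was -0.75 with quantile normalization, -0.71 with a common median and -0.64 with the hybridization controls. THBS1, an adhesive thrombospondin stored in platelets, overlapped with 158.3 and 258.4 against 217.2 and 315.2, and THBS2 was near the floor.

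VIM, the intermediate filament protein of mesenchymal and blood cells and the only cytoskeletal gene of the set, gave 10911.7 and 13093.4 (U937-AE) against 9149.6 and 9226.8 (U937-Mt). The groups did not overlap, but the log2 difference of 0.38 (range 0.24 to 0.52) was below the call. FN1, which encodes fibronectin, had 6 of 7 probe sets at the floor throughout, and the last gave a log2 difference of -0.36. The proteoglycans VCAN and DCN read 134.2 and 155.0 against 168.8 and 189.6 and 225.9 and 270.5 against 177.8 and 257.4, and neither was called. At the floor on all arrays were 3 of 5 VCAN and 6 of 7 DCN probe sets. BGN, a small proteoglycan, varied more between copies than between lines, with 71.0 and 213.1 against 93.9 and 305.4. FBLN1, a fibulin of elastic fibers and basement membranes, was level (log2 difference -0.06). LUM, TGFBI, SPP1 and SPARCL1 were at the floor throughout.

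At the level of probe sets, 7 of 254 (2.76%) were higher, beside 1.52% of all probe sets, and 6 (2.36%) were lower, beside 3.07%. They belong to 9 genes, and no gene had probe sets called in both directions. Of the 254, 81 were measured, and 158 were at the floor throughout. A single probe set stands for 37 members and several for 69, of which 22 had 2 or more measured. CAV1 and SPARC were called with every probe set they have, while CAVIN2, COL4A2, EMILIN2, MMP2 and TIMP2 each had at least 1 probe set that was not called.

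Other genes of the same biology were described from lists that leave out the members, and 75 of 79 listed genes had a value, with 3 higher, 4 lower and 68 not called. Of all genes 1.7% were higher and 4% lower, and the counts of these lists are not read as particular to them. Among 9 other caveolae and lipid raft genes FLOT2, a raft scaffold protein of the flotillin family, was lower, with 1169.5 and 1326.9 (U937-AE) against 2834.8 and 3239.8 (U937-Mt) (log2 difference -1.28, range -1.47 to -1.10). It held its call under all 3 scalings. CAV1 and CAVIN2 were therefore higher, and FLOT2 lower, in the same line.

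Of 19 matrix receptors 2 were higher and none was lower. ITGB1, the beta chain shared by the collagen, laminin and fibronectin receptors, read 10186.9 and 8959.1 (U937-AE) against 4590.3 and 4287.8 (U937-Mt) (log2 difference 1.11, range 0.96 to 1.25), but with the mean of its 7 probe sets the difference was 0.30 and not called. ITGAV, the alpha chain of vitronectin receptors, read 722.3 and 747.1 against 422.2 and 469.3 (log2 difference 0.72). Neither overlapped between the lines. Of 11 ADAM proteases and protease regulators PLAU, the urokinase plasminogen activator, was higher, with 481.4 and 556.3 against 238.2 and 292.2 (log2 difference 0.97).

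Of 17 genes for collagen processing and crosslinking 1 was lower, P3H1, a prolyl hydroxylase that modifies collagen chains, with 754.2 and 817.8 (U937-AE) against 1292.2 and 1247.4 (U937-Mt) (log2 difference -0.69). Of 19 other matrix proteins 2 were lower. AGRN, the basement membrane proteoglycan agrin, read 549.9 and 691.4 against 1327.4 and 1440.5 (log2 difference -1.17), and LTBP3, which binds latent TGF-beta in the matrix, read 99.7 and 139.1 against 218.1 and 256.2 (log2 difference -0.87). The groups of these 3 genes did not overlap. With the arrays scaled to the hybridization controls none of the 3 was called, with log2 differences of -0.35, -0.82 and -0.53, while FLOT2 was. P3H1 and LTBP3 were not called with a common median either (-0.42 and -0.60), and AGRN was not called when the shared probe sets were left out (-0.27). LTBP3 was also not called with the mean of its 3 probe sets (-0.51). Its U937-AE signal was below the floor on 1 array and close to it on the other. ECM1 and ADAM10, which are named for gaining a call, were called higher with that scaling to the controls, at 0.79 and 0.82 instead of 0.45 and 0.47.

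**Figure D3:**
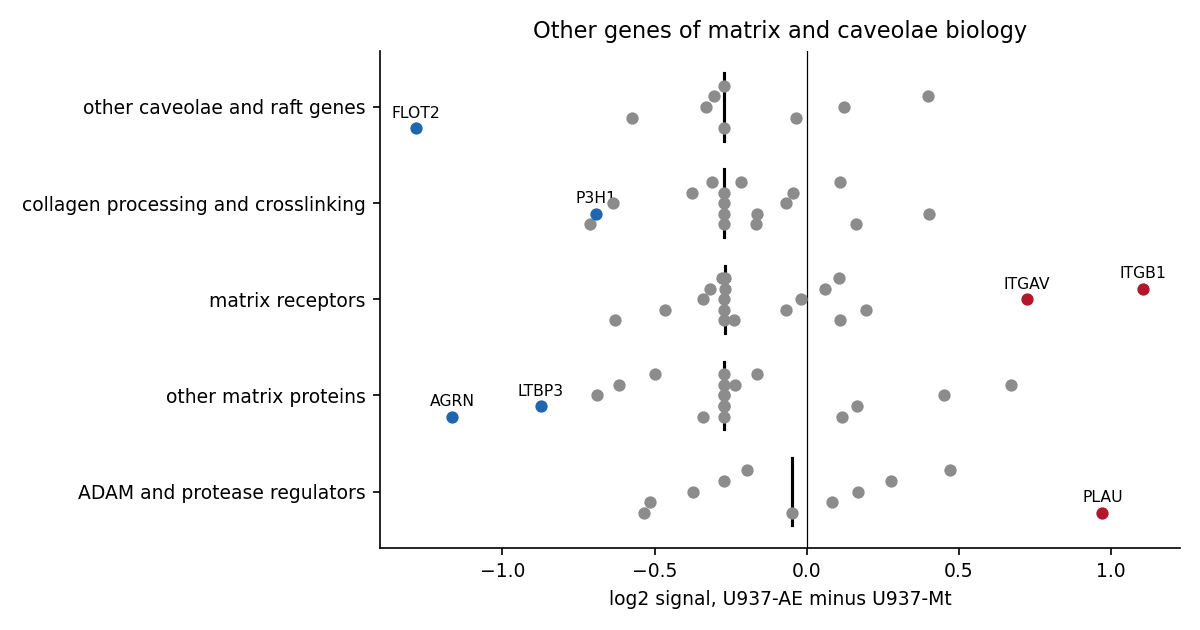
The log2 difference, U937-AE minus U937-Mt, of 75 further genes of matrix and caveolae biology in 5 lists, 1 point a gene, red where called higher and blue where called lower. Black bars are list medians, 3 of which lie at the -0.27 that a gene at the floor throughout takes, and ITGB1, ITGAV and PLAU stand to the right and FLOT2, AGRN, LTBP3 and P3H1 to the left.

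**Figure D4:**
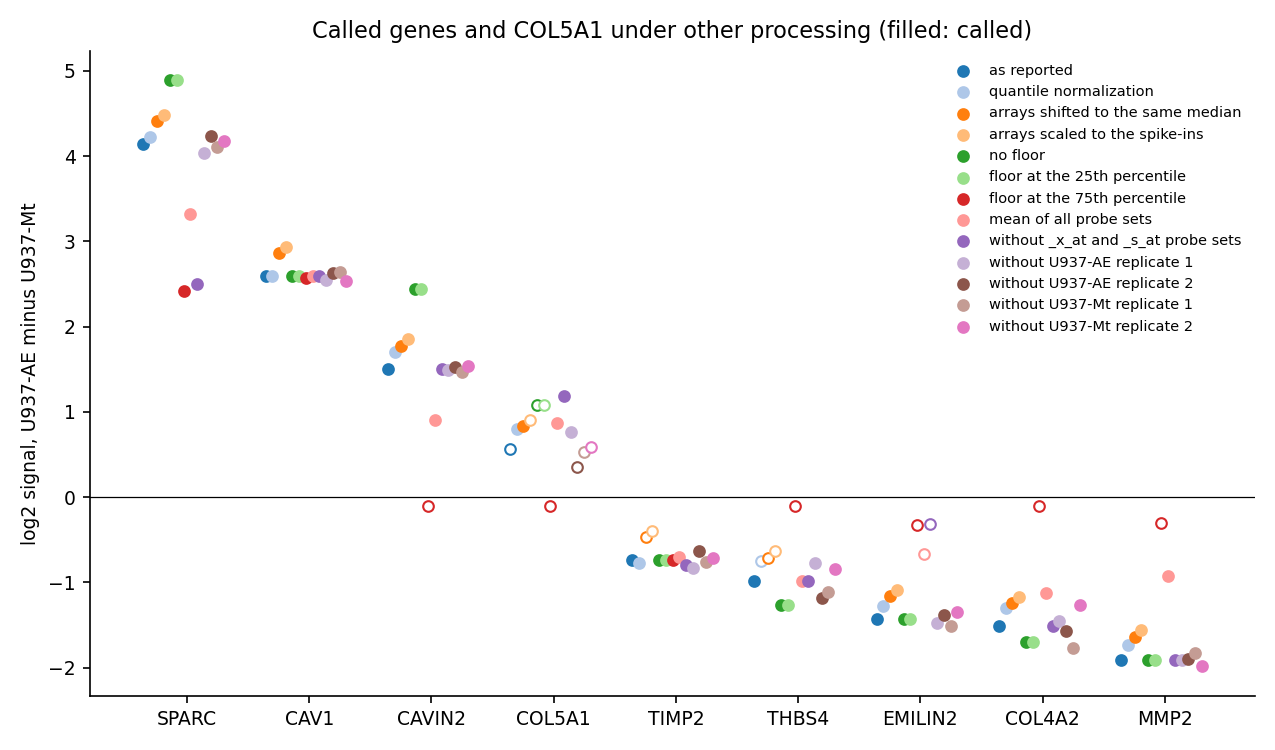
The log2 difference of the 8 called genes and COL5A1 as reported and under 12 other ways of processing, filled where the gene was called. SPARC and CAV1 are filled throughout, while TIMP2 and THBS4 are open when the arrays are scaled to a common median or to the hybridization controls.

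The calls were steadiest for SPARC and CAV1, each kept in 17 of 18 alternatives, followed by CAVIN2, COL4A2 and MMP2 with 16, EMILIN2 with 14, TIMP2 with 13 and THBS4 with 11. That the 8 called genes kept their calls when any 1 array was left out follows from the rule and is no test of them. The same holds for the setting that asked only the mean difference to exceed 1.5-fold. The 18 alternatives include all of these settings, so part of each count was fixed in advance. With the floor at the 75th percentile SPARC kept its call at a log2 difference of 2.41, whereas MMP2 (-0.31), EMILIN2 (-0.33), and CAVIN2, COL4A2 and THBS4 (-0.10 each) lost theirs. The median of the 56 measured members moved from -0.29 to -0.016 when the arrays were shifted to a common median and to 0.057 with scaling to the hybridization controls. Over all genes, a wider set that includes those not measured, the median moved from -0.27 to 0 and 0.07.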

How the data were processed

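Gene expression was measured on 4 HG-U133 Plus 2.0 arrays, 2 per cell line, each pair hybridized with 1 pool of 3 RNA extractions. The values deposited by the authors are linear signal intensities from GCOS, run at its defaults, where background is subtracted and every array is brought to a common mean. Its version was not given in the sources used here. Of 54675 probe sets, 41097 carry 1 gene symbol, 1801 carry several and name no gene here, and 11777 are unnamed. The members and all gene lists were chosen with earlier results of these data known.

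Each array was floored at its 50th percentile before log2 was taken, and a gene was represented by its brightest probe set, judged on unfloored values. Calls needed all 4 comparisons above 1.5-fold. The rule named every called member, every member with a called probe set, every member above the floor on all arrays, by value or by family, and up to 4 called genes of each further list. Named members at the floor, such as COL3A1, were picked with their values known. The calling rule was tested on simulated data, with changes planted only in bright genes, so that test does not cover members near the floor. Alternatives covered scaling, floor, fold, probe set choice, limma 3.58.1 in R 4.3.3, the methods' t-test and leaving out each array. Python 3.11.15 with pandas 2.3.3 was used. Precision is limited by the number of arrays, and since each line is 1 pool, a p-value from them would measure hybridization spread only.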

Additional observations from a re-analysis of the deposited data

How the results depend on the processing

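The counts depended on the floor and on scaling, and the direction of the 8 called genes on neither, except for CAVIN2 with the floor at the 75th percentile. The shares of all genes called under the other settings are not printed here. None of the counts below is therefore read as particular to the members or to the other lists. Against 3 members higher and 5 lower as reported, quantile normalization gave 5 higher, a shift to a common median 5 and 3, and scaling to the hybridization controls 5 and 3. Without a floor 16 members were lower, with the floor at the 25th percentile 14, and with it at the 75th percentile 1. A 2-fold threshold gave 3 lower, the mean difference alone 11, and the methods' t-test joined to a 2-fold threshold gave 3. Leaving out 1 array, which can only add calls under this rule, gave 3 to 5 higher and 6 to 9 lower. After Benjamini-Hochberg adjustment the methods' t-test called 0 in either direction for members, their probe sets and the other pathway genes. With 2 arrays per line and adjustment over all genes that setting had little power, so its 0 is not read as a result. It is the only alternative in which SPARC and CAV1 lost their calls. At an unadjusted p under 0.05 and above 2-fold the methods' t-test called 3 members higher and 3 lower. At the unlike cutoffs of an adjusted p under 0.05 and above 1.5-fold, limma called 4 and 6.

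For probe sets of members, 7 higher and 6 lower as reported, the same settings gave 14 higher and 38 lower without a floor, 27 lower with the floor at the 25th percentile, and 4 higher and 2 lower at the 75th. A common median, the hybridization controls, the 2-fold threshold and the methods' t-test each gave 3 lower, the mean difference gave 18, and leaving out 1 array gave 7 to 9 higher and 7 to 16 lower. For the other pathway genes, 3 higher and 4 lower as reported, a common median gave 5 and 2, the hybridization controls 5 and 1, no floor 7 lower, the 75th percentile 1 higher, the 2-fold threshold 0 and 1, the mean difference 9 lower, the methods' t-test 1 and 2, leaving out shared probe sets 2 lower, and leaving out 1 array 3 to 5 higher and 6 to 8 lower. The median of the 56 measured members, a log2 difference of -0.29 as reported, was -0.064 with quantile normalization, -0.016 with a common median, 0.057 with the hybridization controls, -0.10 with the floor at the 75th percentile, and -0.41 to -0.11 with 1 array left out.

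With the floor at the 75th percentile CAVIN2 and the 2 called COL5A1 probe sets reversed to -0.10, because all arrays are then at the floor.

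Same-numbered arrays deviated together by r = 0.052, so the numbers do not pair the arrays. A replicate block in limma called 9 members, 18 of their probe sets and 7 other pathway genes lower. Genes near the floor have bounds or unsteady differences, and differences between clones, cultures or zinc treatments cannot be measured with 1 pool per line.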
